A study of Homo sapiens with 12 samples.

Results

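The genes described here are members of 9 families of developmental transcription factors. They were taken by name from the array's gene symbols, as every PAX1 to PAX9, sine oculis homeobox (such as SIX2), LHX, TBX, IRX, DLX, GATA, OTX and NKX gene with a probe on it. These rules found 69 genes with 90 probes, out of 32080 named genes and 50599 distinct probes. The families were 6 DLX, 6 GATA, 6 IRX, 8 LHX, 13 NKX, 2 OTX, 9 PAX, 13 TBX and 6 sine oculis homeobox genes.

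The arrays measured mRNA in clones of Colo320DM, an established line from a human colorectal cancer. There were 3 control clones, stably transfected with a negative control miRNA vector (pcDNA6.2-GW/EmGFP-miR-neg), and 3 TET1 knockdown clones, which carried artificial miRNAs against TET1 in the same backbone. By the study's methods and results, clones 1 and 2 had one miRNA and clone 3 a different one. TET1 is an enzyme that oxidises 5-methylcytosine in DNA. Each clone was mock treated or kept for 72 h in 1 µM 5-aza-dC (the DNA methyltransferase inhibitor decitabine), so that 4 groups held 3 arrays each. All 6 clones had gone through drug selection and expansion from a colony, each clone was hybridised once per treatment, and the spread within a group was therefore a spread between clones. The drug is built into DNA during replication and traps DNA methyltransferases, so that newly copied DNA loses methylation. No methylation value is part of these arrays.

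These families share little sequence but a common role. PAX factors bind DNA through a paired domain, GATA factors through zinc fingers and TBX factors through a T-box, while the sine oculis, LHX, IRX, DLX, OTX and NKX factors carry homeodomains. They lay down the identity of limbs, face, brain, heart, gut and endocrine organs in the embryo, and an adult tissue keeps few of them active. Many of their promoters are rich in CG dinucleotides. Such promoters are known as places where DNA methylation builds up in colorectal cancer, and their genes are often searched for those that a demethylating drug brings back.

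Values are log2 signals from which the 75th percentile of the same array was subtracted, so that 0 is the level below which 75% of the probes lay. A probe was called detected where the scanner software marked it well above background, and the lowest signal so marked lay between -4.38 and -3.56 on the 12 arrays. A gene is called silent in a group where none of its probes was detected on any array of that group. The brightness of different probes depends on the probes themselves, so each probe is compared only with itself across arrays. Because whole cultures were measured, a weaker signal from all cells and a signal from fewer cells cannot be told apart.

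The brightest TET1 probe lay between 4.23 and 4.67 in mock control clones and between 3.51 and 3.59 in mock knockdown clones. After 5-aza-dC it was 2.98 and 3.35 in knockdown clones 1 and 3. It was 4.31 in knockdown clone 2, inside the range of 4.06 to 4.42 of the treated control clones. By this 1 probe the library labelled treated knockdown clone 2 went against its label, and whether it is mislabelled was not tested. Between 45.7% and 52.9% of all probes were detected per array. Of 10 colorectal epithelial markers, 5 were detected on all 6 mock arrays, among them CDX2 and KRT18, while CDH1 and VIL1 were detected on none. None of 7 neuroendocrine markers, 2 of 5 fibroblast markers, 2 of 5 blood markers and 1 of 3 endothelial markers were detected on all 6 mock arrays. The arrays came from 2 slides. On slide 1 were the mock arrays of all clones but control clone 3, and the treated arrays of knockdown clones 1 and 3. The other mock array was on slide 2, with all 3 control clones and knockdown clone 2 after treatment.

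Colo320DM cells expressed part of these factors. Of the 69 genes, 25 were detected on all 12 arrays, 19 on none and 25 on some. Detection on every array reached 36.2% of the 69 genes and 43.2% of all named genes, and silence on every array 27.5% and 31.7%. The number of factor genes detected per array ran from 31 in mock control clone 3 to 40 in treated knockdown clone 1.

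**Figure D1:**
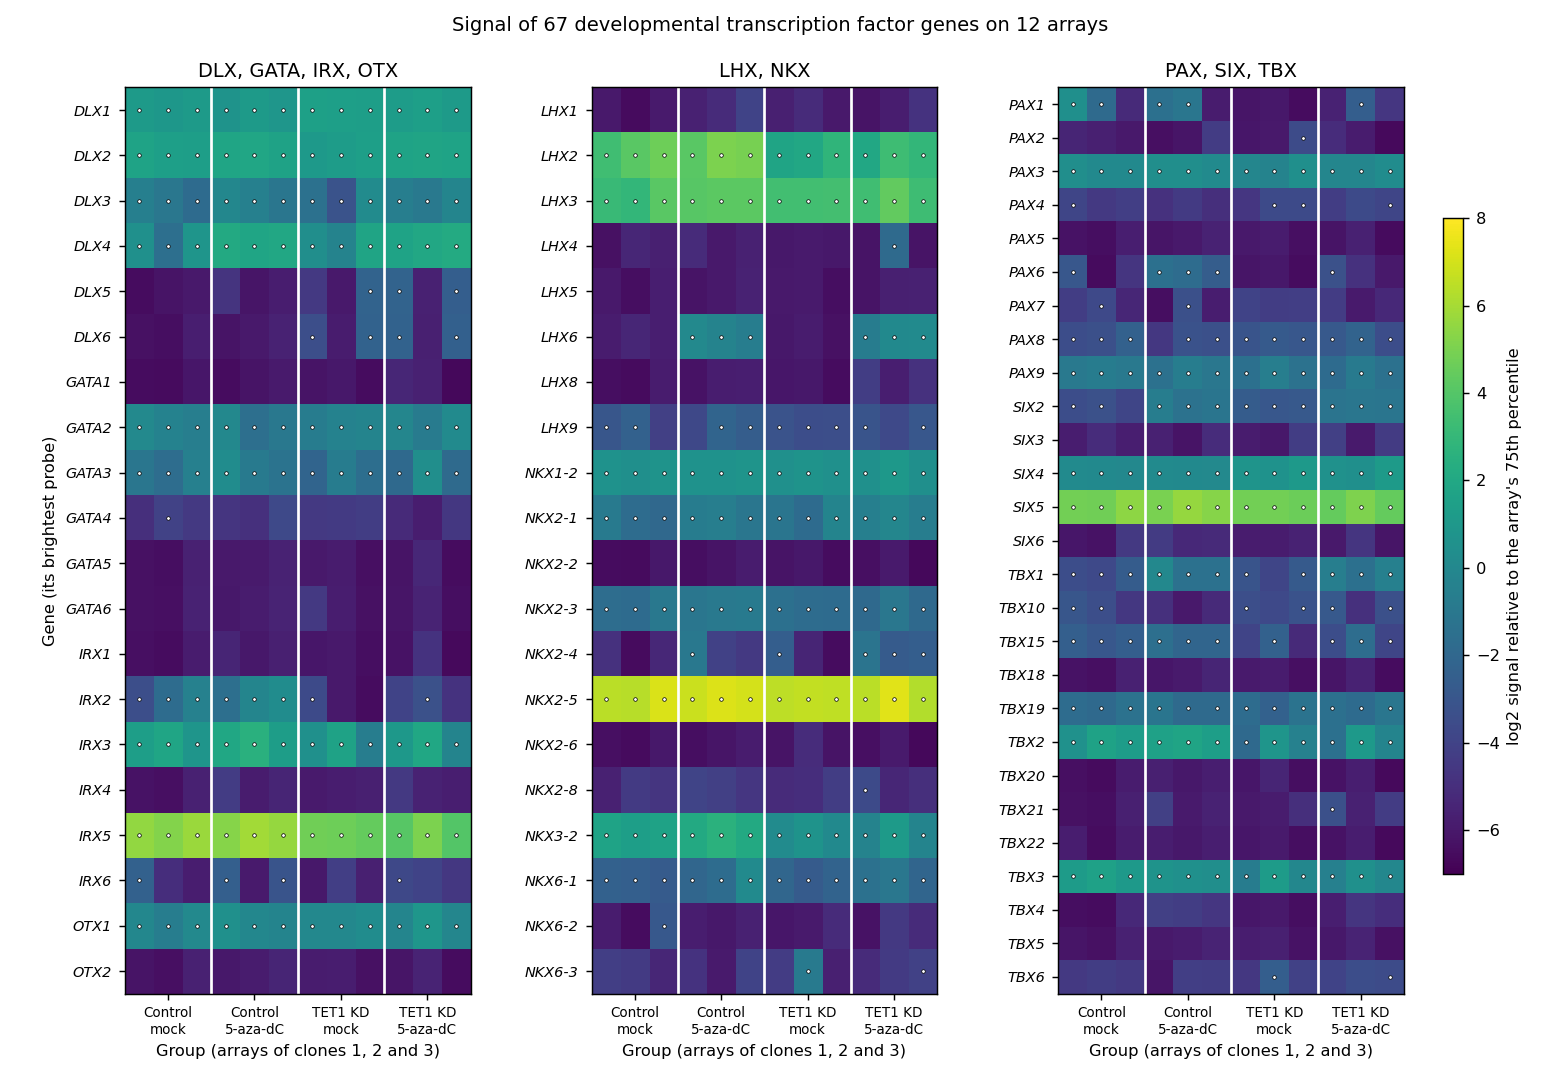
Each row is 1 of 67 of the genes, shown by its brightest probe, each column 1 of the 12 arrays in 4 groups of 3, colour gives the log2 signal relative to the array's 75th percentile, and a white dot marks a probe well above background. NKX2-5 and IRX5 were bright in every column, GATA5 and PAX5 were dark in every column, and the LHX6 row changed between mock and 5-aza-dC in both clone types.

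The families differed in which members were on. DLX1, DLX2, DLX3 and DLX4, homeobox genes of the face and forebrain, were detected on all arrays, and DLX5 and DLX6 only in knockdown clones 1 and 3. GATA2 and GATA3, factors of blood and epithelial lineages, were on in all arrays, whereas GATA1, GATA5 and GATA6 were silent in all. GATA6 and GATA4 are known for their role in gut endoderm, and GATA4 was detected on 3 arrays of control clones, by a different probe on each. In the IRX family IRX3 and IRX5 were on throughout and IRX1 and IRX4 off throughout. Of 13 NKX genes, NKX1-2, NKX2-1, NKX2-3, NKX2-5, NKX3-2 and NKX6-1 were detected on all arrays. NKX2-3 is a factor of gut mesenchyme and NKX2-5 of the heart. Of 13 TBX genes, TBX2, TBX3 and TBX19 were on in all arrays and TBX4, TBX5, TBX18, TBX20 and TBX22 in none. PAX3 and PAX9 were detected everywhere and PAX5, the B cell factor, nowhere.

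The members named next were among the 10 with the highest mean signals of those detected on all arrays. NKX2-5 lay between 6.28 and 7.30, IRX5 between 3.97 and 5.91, SIX5 between 4.43 and 5.61, and LHX3 between 2.92 and 4.42. LHX2, a LIM homeodomain factor of the forebrain, eye and hair follicle, ran from 1.77 to 5.06 and IRX3 from -0.65 to 2.53. DLX2 kept to 1.08 to 1.88 and DLX1 to 0.68 to 1.52, while DLX4 ran from -1.53 to 2.17. LHX3 had another probe (A_23_P9496) that was detected on no array, so its level rests on A_33_P3223678.

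For some of these genes the level moved with the slide. NKX2-5 lay between 6.28 and 6.60 on the 7 arrays of slide 1 and between 6.79 and 7.30 on the 5 arrays of slide 2. LHX3, NKX2-3 and SIX5 also did not overlap between slides, which made 4 of the 25 genes detected throughout. The share over all genes was not counted, so the 4 are not read as a trait of these families. Slide 2 held mostly treated arrays, and this count does not separate slide from treatment. The part of the slide in any result below was examined by a fit with slide as a block, in which only arrays of 1 slide are set against each other. For 5-aza-dC that fit sets 1 mock control array (clone 3) against the 3 treated ones on slide 2, and the 3 mock knockdown arrays against 2 treated ones on slide 1. A single array in a group is assumed to vary like the others.

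Which of the silent factors did 5-aza-dC open? LHX6 opened in both clone types, and no other gene of the 69 met the same rule in either one. LHX6 encodes a LIM homeodomain factor that directs the migration and fate of cortical interneurons and takes part in tooth and jaw development. Opened here means silent on the 3 mock arrays of a clone type and detected on all 3 treated arrays. In control clones 29 genes were silent before treatment and 1 opened, against a background of 2.85% of 13456 silent genes on the array. In knockdown clones 29 were silent and 1 opened, against 2.67% of 13935. Both shares were near the background, so the count itself is no property of these families.

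The LHX6 probe (A_23_P32175, on hg19 chromosome 9 from position 124965080 to 124965139) read -5.87, -5.39 and -5.72 in mock control clones 1 to 3 and 0.07, -0.28 and -0.66 in the same clones after 5-aza-dC. In knockdown clones it read -6.01, -5.84 and -6.34 before and -0.69, 0.13 and 0.19 after treatment. All 6 mock arrays were below the detection level and all 6 treated arrays far above it, with no overlap. Since the mock arrays give only a bound, the increase was at least 14.4-fold in control clones and at least 14.2-fold in knockdown clones. The adjusted p was 0.000407 and 0.000316 by limma, and 0.00892 and 0.00229 with slide as a block. With slide and the pairing of arrays of 1 clone together, the adjusted p was 0.0117 in knockdown clones, and the call was lost in control clones (adjusted p = 0.0751). LHX6 entered these fits through its treated arrays, where it was detected, so its calls rest on mock readings below background. The fitted size of its change is therefore not given, and the p-values add no support to the detection pattern.

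LHX6, SIX2 and TBX1 were the members called higher in both clone types, and the sequence before their starts is shown to let a reader see how CG-rich these promoters are. The fourth sequence, PAX5, is from a gene that stayed silent on all 12 arrays. Each is the 250 bases before the RefSeq start in GRCh38.p14, 5′ to 3′ on the gene's strand, with the CG dinucleotides in capitals. They lie at chr9:122228434-122228683 on the minus strand (LHX6), chr2:45009453-45009702 on the minus strand (SIX2), chr22:19756453-19756702 on the plus strand (TBX1) and chr9:37034269-37034518 on the minus strand (PAX5).
LHX6: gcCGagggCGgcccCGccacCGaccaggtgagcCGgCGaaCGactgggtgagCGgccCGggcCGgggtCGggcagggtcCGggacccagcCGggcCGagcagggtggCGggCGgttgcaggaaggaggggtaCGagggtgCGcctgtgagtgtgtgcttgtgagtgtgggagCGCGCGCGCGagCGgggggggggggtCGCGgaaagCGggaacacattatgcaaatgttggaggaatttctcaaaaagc
SIX2: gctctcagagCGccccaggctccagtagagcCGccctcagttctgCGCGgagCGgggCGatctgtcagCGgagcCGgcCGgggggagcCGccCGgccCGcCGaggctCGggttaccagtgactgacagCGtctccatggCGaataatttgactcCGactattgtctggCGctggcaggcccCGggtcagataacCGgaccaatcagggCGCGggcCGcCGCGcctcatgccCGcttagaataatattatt
TBX1: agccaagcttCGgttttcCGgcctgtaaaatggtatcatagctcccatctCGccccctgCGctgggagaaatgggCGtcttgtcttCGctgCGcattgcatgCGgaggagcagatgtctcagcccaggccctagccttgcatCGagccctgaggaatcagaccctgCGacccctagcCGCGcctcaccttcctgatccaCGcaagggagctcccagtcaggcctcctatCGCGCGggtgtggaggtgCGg
PAX5: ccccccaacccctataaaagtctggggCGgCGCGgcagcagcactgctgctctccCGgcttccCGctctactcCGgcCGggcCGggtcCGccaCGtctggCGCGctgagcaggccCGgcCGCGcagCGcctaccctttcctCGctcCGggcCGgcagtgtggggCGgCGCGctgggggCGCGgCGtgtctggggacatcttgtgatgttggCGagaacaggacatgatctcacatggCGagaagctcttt
LHX6 and PAX5 both held 27 CG dinucleotides, SIX2 held 26 and TBX1 held 17. CG reads the same on both strands, and 93.9% of all 35116 promoters of this length held at least 1. Promoters were found for 47 of the 69 genes, and their median was 20 CG against 11 over all promoters. By detection the medians were 18 for the 14 genes silent on all arrays (3 to 39), 18 for the 17 detected on some (1 to 30) and 22.5 for the 16 detected on all (2 to 36). A count of CG is a description of the sequence and says nothing of its methylation in these clones.

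SIX2 and TBX1 were not silent before treatment, but they were near the detection level and rose in every clone. SIX2 is a homeobox factor that maintains kidney progenitor cells. Its probe read -3.44, -3.29 and -3.85 in mock control clones and -0.62, -1.32 and -1.17 after 5-aza-dC. Knockdown clones went from -2.63, -2.92 and -2.84 to -1.23, -1.10 and -1.17. The groups did not overlap in either clone type, and the treated levels lay close together. SIX2 rose by 2.49 (SE 0.26, adjusted p = 0.00468 by limma) in control clones and by 1.63 (SE 0.19, adjusted p = 0.00713) in knockdown clones. With slide as a block the adjusted p was 0.0248 and 0.0143. With slide and pairing together it was 0.031 in knockdown clones. In control clones, where that fit takes the change from clone 3 alone, the change was 2.68 and the call was lost.

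TBX1, the T-box factor of the pharyngeal arches and the heart's outflow tract, read -3.44, -3.69 and -2.65 in mock control clones and -0.03, -1.42 and -1.39 after treatment. In knockdown clones it went from -3.10, -3.86 and -2.77 to -0.59, -1.45 and -0.46. Every treated array was above every mock array of its clone type. The rise was 2.32 (SE 0.46, adjusted p = 0.0437 by limma) in control clones and 2.41 (SE 0.39, adjusted p = 0.034) in knockdown clones. In control clones the call was lost with slide as a block (1.70, adjusted p = 0.245) and with the replicate block that pairs the arrays of 1 clone (2.32, adjusted p = 0.059). A second TBX1 probe (A_23_P40527) was detected on no array.

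**Figure D2:**
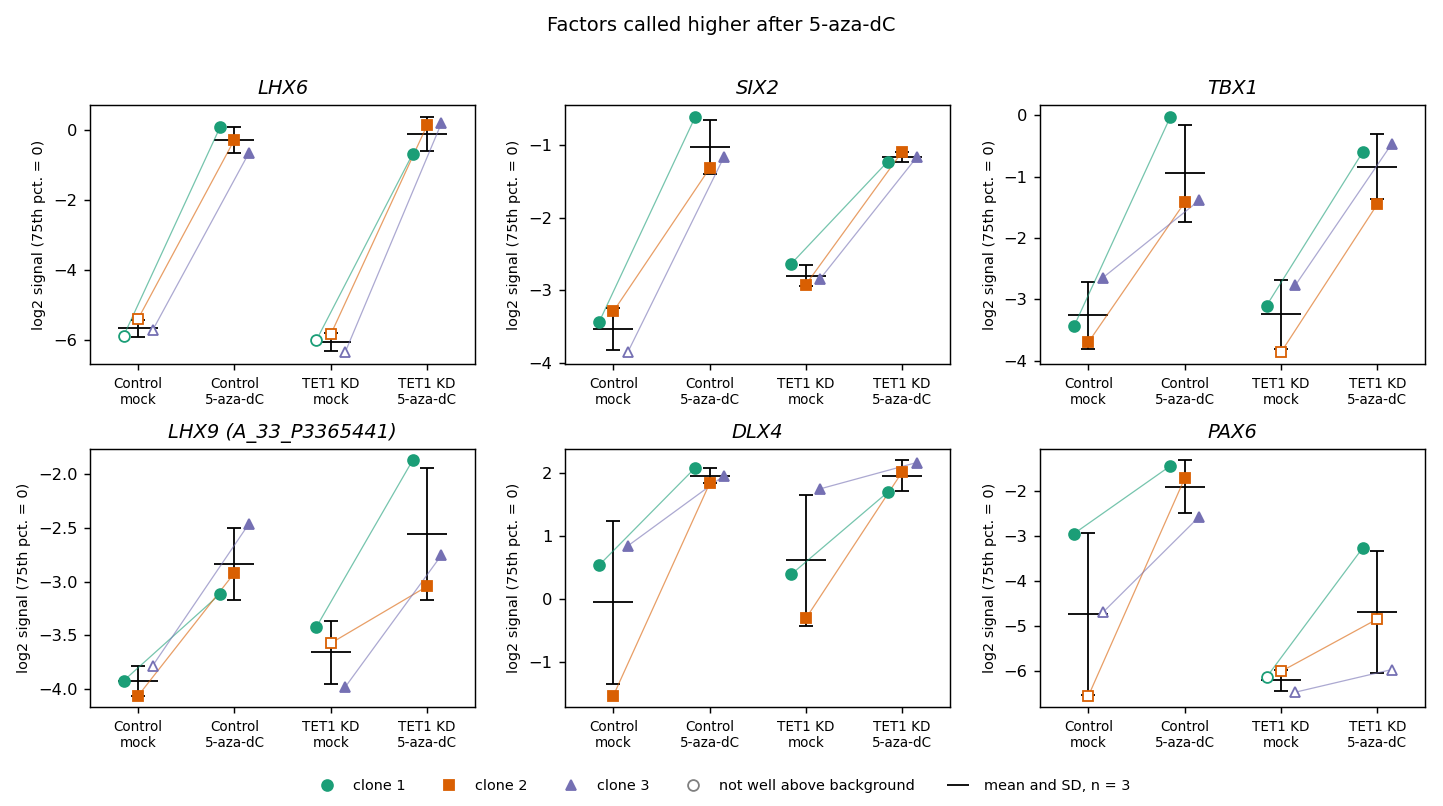
Points are log2 signals (75th percentile of the array at 0) of single clones in the 4 groups for the 6 factors called higher after 5-aza-dC over all clones, open where not well above background, thin lines join the mock and treated arrays of 1 clone, and black bars give mean and SD (n = 3). LHX6 went from below -5 to above -1 in all 6 clones, and LHX9 rose at low signal. DLX4 had wide spread between mock clones, and PAX6 between mock control clones and between treated knockdown clones.

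In all, 4 of 41 member probes tested were called higher in control clones and 0 lower, where 3.84% of all 24631 tested probes were called higher and 1.37% lower. The fourth was an LHX9 probe. In knockdown clones 3 of 41 were higher and 0 lower, beside 2.04% and 0.0118% of 25385 probes. With both clone types in 1 fit, 6 of 46 were higher and 0 lower, beside 7.29% and 5.95% of 27281 probes. These 6 were LHX6, SIX2, TBX1, LHX9, DLX4 and PAX6. The median change of the tested member probes was 0.40 in control and 0.23 in knockdown clones, against -0.02 and -0.09 over all probes tested, and the medians were the same with LHX6 at its bound. These medians moved with the fit. With slide as a block they were 0.09 in control and 0.09 in knockdown clones, against -0.09 and -0.09 over all probes. Tested probes had to be detected on at least 3 arrays, so members silent throughout are in none of these counts. LHX6, silent on all mock arrays, entered them only through its treated arrays, where it was high. With any 1 knockdown clone left out, no member was called in knockdown clones. LHX6 was then detected on too few arrays to be tested.

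Scaling each array by its median shifted every change downwards, since the median of all probes tested over all clones moved from -0.05 to -0.29. The member medians became 0.19 in control clones and -0.03 in knockdown clones, where 20 of 41 member probes were then higher, instead of 31. Under that scale 10 member probes were called over all clones, 7 higher and 3 lower, beside 6.23% of all probes called higher and 25.1% lower. The lower ones were DLX1, PAX3 and TBX10. In control clones it gave 3 higher and 1 lower, beside 3.6% and 6.7%, the lower one being TBX3. LHX6, SIX2 and TBX1 were among those called higher under this scale over all clones.

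LHX9, a LIM homeodomain factor of the gonad and the brain, changed by one of its 3 probes. A_33_P3365441 read -3.92, -4.06 and -3.78 in mock control clones and -3.12, -2.92 and -2.46 after 5-aza-dC. In knockdown clones it went from -3.42, -3.57 and -3.98 to -1.87, -3.04 and -2.75. The treated arrays were above the mock arrays in both clone types, at low signal. Over all clones the rise was 1.10 (SE 0.22, adjusted p = 0.00879 by limma, 0.0219 with slide as a block). In control clones alone it was 1.09 (SE 0.22, adjusted p = 0.0436) and the call was lost within the slide (adjusted p = 0.197). The brightest LHX9 probe, A_33_P3365437, differed by 0.22 over all clones with adjusted p = 0.692, and the other was detected on no array.

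DLX4 and PAX6 passed the threshold over all clones alone. DLX4, a distal-less homeobox gene, was detected on every array. It read 0.54, -1.53 and 0.85 in mock control clones and 2.09, 1.84 and 1.97 after treatment, and in knockdown clones 0.40, -0.30 and 1.76 before and 1.70, 2.02 and 2.17 after. All 6 clones ended between 1.70 and 2.17 although they began far apart, and the rise was 1.68 (SE 0.44, adjusted p = 0.0311 by limma). PAX6, the paired-box factor of eye and pancreas, read -2.95, -6.55 and -4.70 in mock control clones and -1.44, -1.72 and -2.57 after treatment. In knockdown clones the mock arrays read -6.14, -6.01 and -6.47 and the treated ones -3.26, -4.85 and -5.97, of which 1 was detected. PAX6 was detected on 1 of the 6 mock arrays, so the size of its change rests largely on readings below background. Over all clones the fitted change was 2.17 (SE 0.60, adjusted p = 0.04). With slide as a block the adjusted p was 0.162 for DLX4 and 0.119 for PAX6. The other PAX6 probes were each detected on 2 arrays or fewer and were not tested.

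With the mock and treated arrays of each clone paired by the replicate block, 10 of 46 member probes were called higher over all clones, the 6 above and 4 more. The share of all probes called in this paired fit is not given here, so the count is not read as a property of these families. Those 4 were NKX2-4 (2.53, adjusted p = 0.0203), TBX15 (0.79, adjusted p = 0.0211), IRX3 (0.48, adjusted p = 0.0259) and the dimmer IRX2 probe (0.59, adjusted p = 0.0285). With slide added to the pairing, all 4 lost the call, with adjusted p of 0.157, 0.117, 0.0716 and 0.134 in the same order. DLX4 (0.193) and PAX6 (0.189) lost it as well, while LHX6, SIX2, TBX1 and LHX9 kept it. NKX2-4, an NK2 homeobox gene, was silent in the 3 mock control clones (-4.85, -6.58 and -5.31) and detected in 1 of them after treatment, with -0.99, -4.09 and -4.53. In knockdown clones it read -2.52, -5.42 and -6.50 before and -1.22, -2.67 and -2.50 after treatment, and was detected in 1 mock and all 3 treated arrays. In control clones 2 and 3 it was below background before and after. Without the block its adjusted p was 0.0581.

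**Figure D3:**
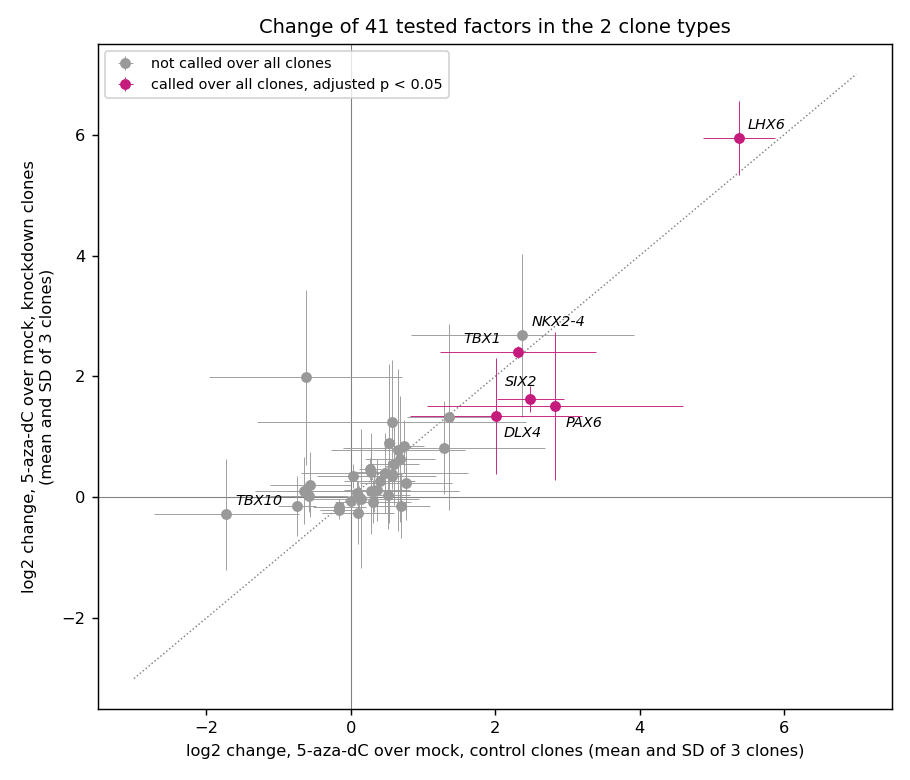
Each point is 1 of the 41 member genes tested over all clones, by its brightest probe, with the mean log2 change after 5-aza-dC in the 3 control clones on the x axis, that in the 3 knockdown clones on the y axis, bars for the SD over clones and a dotted line where both are equal. LHX6 stands farthest from 0 on both axes, but its mock readings were below background, so its position does not give the size of its change. Most other genes lie close to 0 on both axes.

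Most silent factors stayed silent. Of the 23 member genes silent on all 6 mock arrays, 19 were silent on all 6 treated arrays as well. The 4 that gave any detected array were LHX6 on 6 arrays and LHX4, NKX2-8 and TBX21 on 1 array each. On the whole array 18% of the 12414 genes silent on all 6 mock arrays gave at least 1 detected treated array. LHX4, a LIM homeodomain factor of the pituitary, read -1.79 in treated knockdown clone 2 and between -6.35 and -5.18 on the other 11 arrays. NKX2-8 read -3.63 and TBX21, the T helper factor T-bet, -3.34 in treated knockdown clone 1. Each rests on 1 array. The 19 that remained silent were GATA1, GATA5, GATA6, IRX1, IRX4, LHX1, LHX5, LHX8, NKX2-2, NKX2-6, OTX2, PAX5, SIX3, SIX6, TBX4, TBX5, TBX18, TBX20 and TBX22. No member detected on all 3 mock arrays of a clone type became silent on its 3 treated arrays. Of all 32080 named genes, 93 did so in control clones and 6 in knockdown clones, so this absence is no property of these families.

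Several of these genes lie in pairs or clusters, and in the following cases, chosen after their values were seen, neighbours differed. SIX2 rose after 5-aza-dC, while SIX3, whose probe starts at hg19 position 45169665 of chromosome 2 against 45233262 for SIX2, was detected on no array. TBX2 was on and TBX4 off throughout on chromosome 17 (probe starts 59486256 and 59561528), and TBX3 on and TBX5 off throughout on chromosome 12. LHX6 and LHX2 lie on chromosome 9 with probe starts 124965080 and 126795257, and LHX2 was on in mock and treated arrays alike. On chromosome 14 SIX4 was on and SIX6 off throughout. On chromosome 20 NKX2-4 was detected on 5 arrays and NKX2-2 on none (probe starts 21376011 and 21491799).

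Did the knockdown change these factors? None of 38 member probes tested in mock clones was called by limma, beside 0.137% of all probes, and 7 had an unadjusted p under 0.05, beside 11.2% of all probes. After 5-aza-dC none of 41 was called, beside 0.096%, and 7 had an unadjusted p under 0.05, beside 19.3%, so that this count was near the background. The smallest p-values belonged to NKX3-2, LHX2, IRX5 and IRX2, and all of these had lower means in knockdown clones. NKX3-2, a homeobox factor of cartilage and foregut mesenchyme, read 1.67, 1.39 and 1.64 in mock control clones and 0.24, 0.69 and 0.14 in mock knockdown clones. The groups did not overlap, and the difference was -1.21 (SE 0.22, adjusted p = 0.229 by limma). After treatment it was 2.13, 2.55 and 2.13 against -0.27, 1.15 and -0.25, a difference of -2.06 (SE 0.42, adjusted p = 0.148).

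LHX2 read 3.42, 4.19 and 4.72 in mock control clones against 1.77, 2.02 and 2.83 in mock knockdown clones (difference -1.90, SE 0.42, adjusted p = 0.304 by limma). After 5-aza-dC it read 4.14, 5.06 and 4.91 against 1.99, 3.34 and 2.94 (difference -1.95, SE 0.42, adjusted p = 0.153). IRX5, an Iroquois factor of heart and retina, lay between 5.24 and 5.74 in mock control and between 4.48 and 4.74 in mock knockdown clones (difference -0.88, SE 0.20, adjusted p = 0.325). IRX2 read -1.52, -0.17 and 0.32 in treated control clones and -4.00, -3.30 and -4.83 in treated knockdown clones, where 1 of 3 arrays detected it. Its difference was -3.58 (SE 0.57, adjusted p = 0.0979), and in mock clones -3.54 (SE 0.98, adjusted p = 0.364). For all 4 genes the control and knockdown ranges were apart under both treatments, and none passed the threshold. These genes were picked for their small p-values, so the separation is no support for a difference.

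The treated comparison turned on 1 array. Without knockdown clone 2, 12 of 40 member probes tested were called by limma after 5-aza-dC, 11 of them lower in knockdown clones. Among these were NKX3-2 (-2.53, adjusted p = 0.00275), IRX2 (-3.96, adjusted p = 0.00884) and LHX2 (-2.24, adjusted p = 0.0138). All treated control clones were on slide 2 and the other treated knockdown clones on slide 1. Without that clone the slide and the clone type therefore cannot be told apart, and 7724 probes in all were called. The fit with every clone tested 24992 probes, so the share of all probes called was large as well. The 12 are therefore not read as a property of these families. Within slide 2, knockdown clone 2 was the 1 knockdown array beside 3 controls, and only its TET1 probe was seen to go against its label. The difference of clone 2 there was -1.12 for NKX3-2, -2.84 for IRX2 and -1.36 for LHX2.

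**Figure D4:**
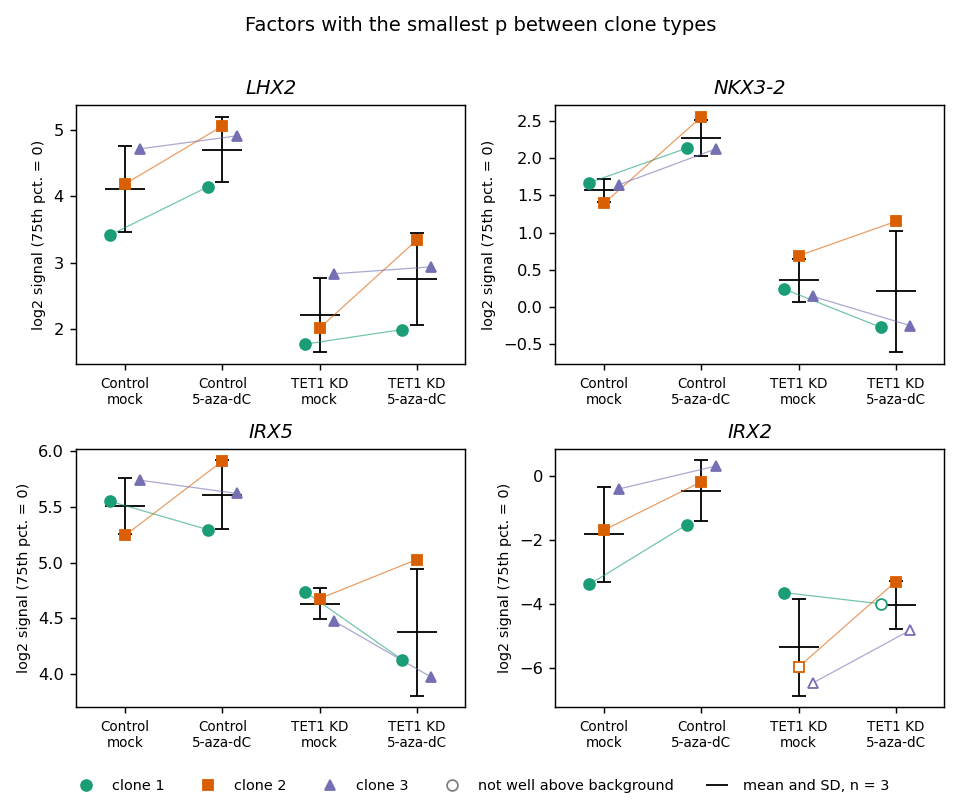
Points are log2 signals (75th percentile of the array at 0) of single clones for the factors with the smallest p between clone types, open where not well above background, lines join the mock and treated arrays of 1 clone, and black bars give mean and SD (n = 3). NKX3-2, LHX2, IRX5 and IRX2 lay lower in all knockdown clones than in the control clones under the same treatment.

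The response to 5-aza-dC was not shown to depend on the knockdown for any member. None of 46 member probes had an interaction of clone type and drug called by limma, beside 0.0367% of all probes, and 1 had an unadjusted p under 0.05, beside 2.46%. That was SIX2, whose rise was smaller by 0.86 in knockdown clones (SE 0.31, adjusted p = 1). TBX10, a T-box gene, and NKX3-2 followed with differences of 1.44 (SE 0.78) and -0.85 (SE 0.50), both with adjusted p = 1.

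Clones of the same type also differed from each other, in genes chosen here after their values were seen. DLX6, a neighbour of DLX5 on chromosome 7, read -3.40 and -2.26 in mock and treated knockdown clone 1 and -2.30 and -2.41 in clone 3, but -5.88 and -5.66 in clone 2. In the control clones it lay between -6.47 and -5.55 and was not detected. DLX5 followed the same clones, with -2.20 and -2.54 in clone 3 and -4.51 and -2.25 in clone 1. PAX1, a factor of the vertebral column and thymus, was detected under both treatments in control clones 1 and 2, with 0.47 and -1.82 in mock arrays, and in neither array of control clone 3.

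TBX2 and TBX3, T-box factors of limb and heart, were lower in knockdown clones 1 and 3 than in clone 2. Mock TBX2 read -1.89 and -0.38 in those clones and 0.85 in clone 2, against 0.60, 1.62 and 1.31 in the control clones. Mock TBX3 read -0.72 and -0.06 against 1.21, with control clones between 1.10 and 1.58. After 5-aza-dC the order of the knockdown clones was the same in both genes. Neither gene was called between clone types (TBX2 adjusted p = 0.447 and TBX3 0.449 in mock clones by limma).

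**Figure D5:**
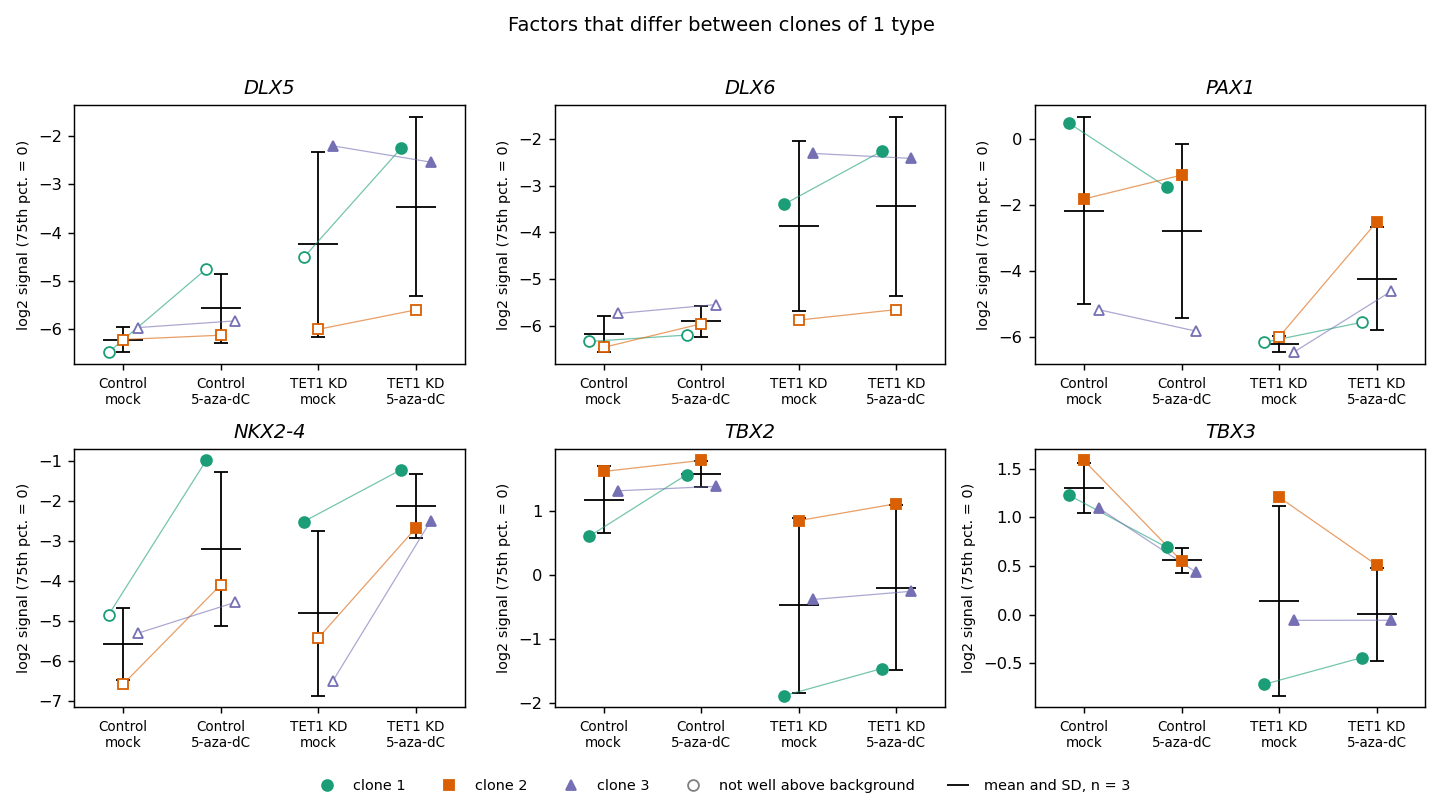
Points are log2 signals (75th percentile of the array at 0) of single clones in the 4 groups, open where not well above background, lines join the mock and treated arrays of 1 clone, and black bars give mean and SD (n = 3). DLX5 and DLX6 were detected in knockdown clones 1 and 3 and never in clone 2, and TBX2 and TBX3 were lowest in knockdown clone 1.

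Related regulators were counted in the fit over all clones, in which 7.29% of all probes were called higher and 5.95% lower. Of the LIM and T-box relatives and MGA, 6 probes were tested over all clones and 1 was called, a dimmer MGA probe that was lower. ISL1 changed by 0.35 (adjusted p = 0.22 by limma), ISL2 by -0.32 (adjusted p = 0.594) and LMX1B by 0.34 (adjusted p = 0.316). Of the EYA, DACH, ZFPM and LDB partners, 13 probes were tested and 0 called. Of these, 4 had an unadjusted p under 0.05 by limma, beside 32.1% of all probes, so this count was near the background. EYA2, a coactivator of sine oculis homeobox factors, changed by 1.11 (adjusted p = 0.115) and EYA1 by 0.93 (adjusted p = 0.248). Of 37 other homeobox genes, 24 probes were tested and 1 was called. This was BARX1, a factor of stomach and tooth mesenchyme, which was detected on none of the 6 mock arrays and on 2 of 3 treated arrays in each clone type. It was at least 1.91-fold higher in control and at least 3.03-fold higher in knockdown clones. BARX1 entered the fit through its treated arrays, so its call (adjusted p = 0.000329 by limma over all clones) rests on mock readings below background. DLX6-AS1, NKX2-1-AS1 and OTX2OS1, the antisense transcripts of members on the array, were detected on no array.

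The same rule for opening was applied to other homeobox and HMG-box families. Of 39 HOX genes, 6 were silent in mock control clones and 1 opened, and 9 were silent in mock knockdown clones and 1 opened. Of 19 SOX genes, 12 and 10 were silent, and 2 and 0 opened. Of the HOX genes 20 of 39 were detected on all 12 arrays, beside 7 of 19 SOX genes and 25 of the 69 genes described here. No test of these differences was made.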

How the data were processed

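The 12 arrays were 1-colour Agilent human gene expression arrays. Per the file headers, the authors deposited Feature Extraction 10.7 output in hg19, in which the processed signal is an intensity corrected for background within the array. The deposited series table held the same intensity values to within 0.497%. Signals were taken to log2 here, spots with outlier flags left out (268 to 395 per array), spots of a probe averaged, and the array's 75th percentile subtracted (signal 241 to 359). A probe was detected where at least 50% of its spots were well above background and was tested where detected on 3 arrays of the fit. limma 3.58.1 under R 4.3.3 gave changes, with Benjamini-Hochberg adjustment over all probes tested and a threshold of 0.05. p-values measure the spread between 3 clones per group. On simulated data for the fit over all clones, 50% of 50 probes changed by a log2 of 1 and 84% of 50 changed by 2 were called. The other fits called fewer. The shares were 14% and 62% for the drug in control clones, and 0% and 50% in knockdown clones. Between clone types they were 8% and 50% in mock arrays, and 2% and 64% after 5-aza-dC. For the interaction they were 4% and 38%, so the fits without calls could miss changes of these sizes.

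A gene was shown by the probe with the highest mean over 12 arrays. Named were all called members up to 12 per drug comparison, opened genes, the 3 smallest p-values where none was called, the 10 brightest detected throughout, and TET1. Members and lists were chosen with earlier results of these data known. The mock and treated arrays of 1 clone number are the same clone, and their deviations from the group means correlated at 0.213 to 0.525 over 27200 probes. The number was therefore used as a pairing in the replicate block. The main fits had no block and treated the arrays of 1 clone as independent. The alternatives tried were other scaling, background correction, filters, slide and replicate blocks, the methods' t-test and leaving out each clone. Values of 2 members are not reported here. Promoters came from RefSeq (GRCh38.p14). The number of arrays limits the precision.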

Additional observations from a re-analysis of the deposited data

How the results depend on the processing

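LHX6, SIX2 and TBX1 kept their direction and call over all clones under all 14 alternatives that tested them. The changes were 1.04 to 2.19 for SIX2 and 1.22 to 2.63 for TBX1, while the calls of LHX6 rest on mock readings below background. No named gene changed sign under any alternative. Of the counts recomputed under an alternative, 77 stayed within 1.5 times and 23 did not. The 77 include counts between clone types and for the interaction that were 0 and stayed 0. In control clones 4 member probes were called. The count was 2 after quantile normalization, 2 after normexp, 2 without a filter, 2 with slide as a block and 1 by the methods' t-test. It was 0 with detection on every array. With the replicate block and slide together, where clone 3 alone gives the change, LHX6, SIX2, TBX1 and LHX9 all lost their calls. Leaving out a clone gave 0 to 6, with 0 without control clone 1 or 2. LHX6 was detected on too few arrays to be tested in those fits and in the fits with detection on every array. In knockdown clones the count went from 3 to 1 with detection on every array and to 0 without any clone. Over all clones the count of 6 became 10 with the replicate block, 10 by the array median, 1 with detection on every array, and 3 to 5 without a clone, with 3 without control clone 2. The replicate block gave 4 in control clones, 3 in knockdown clones and 0 for each of the other comparisons, and the loss of TBX1 and the gain of IRX2 in control clones were its changes within 1 clone type. Between clone types in treated arrays, leaving out a clone gave 0 to 12, with 12 without knockdown clone 2. Opened genes numbered 1 in each clone type. By the negative control spots 0 were opened in control clones and 3 in knockdown clones (LHX6, PAX1 and TBX4), and without a clone 1 to 2 and 1 to 3, with 2 without control clone 1 (LHX6 and PAX6), 2 without knockdown clone 1 (LHX6 and NKX2-4) and 3 without knockdown clone 2 (LHX6 and TBX15 among them). The cause of these differences was not tested. Probes near background give only bounds.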
